A study of Mus musculus with 16 samples.

Results

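Carboxylesterases of the Ces1, Ces2 and Ces3 groups were followed in liver tumours and in the non-tumour liver of the same mice. The set holds 10 genes, Ces1b, Ces1c, Ces1d, Ces1e, Ces1f, Ces1g, Ces2a, Ces2e, Ces3a and Ces3b, out of 22180 genes with a named row on a mouse Affymetrix array. A gene was taken when a row of the table carried its symbol and no other. Where a gene had several rows, the row was chosen by its mean level over the 16 arrays, the only measured value in the rule. Each of the 10 genes had 1 row, so that value decided nothing here. The list itself was drawn up with earlier results of these arrays known. It leaves out Ces2g, a neighbour that was well above the array median and higher in tumours, so the common direction of the 10 genes partly reflects how they were listed.

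Carboxylesterases are serine hydrolases that cleave esters, amides and thioesters. Hepatocytes make them in large amounts, and most are held in the endoplasmic reticulum, where they act on drugs, pesticides and stored lipids. In mice the single human CES1 and CES2 genes correspond to clusters of tandem copies, and products of several Ces1 and Ces2 copies hydrolyse triglyceride or diglyceride.

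The arrays were 16, from 8 transgenic C57BL/6J mice aged 18 months. In 4 mice (labelled MYC+/+, REG3A-/-, called MYC here) the c-MYC oncogene was expressed in liver under woodchuck hepatitis virus control. In the other 4 (labelled MYC+/+, REG3A+/+, called MYC/REG3A) a REG3A transgene was added, whose promoter the labels do not name. From every animal a tumour and a non-tumour piece were taken, so all 4 groups carry the MYC transgene, and non-tumour liver is not wild-type liver. Levels are log2 values made by RMA, on which a difference of 1 is a 2-fold difference. Array medians lay between 4.896 and 4.973. Hepatocyte markers were high in every group, with mean log2 levels of 12.31 to 12.67 over 16 genes. The Myc row averaged 7.68 in MYC non-tumour liver and 7.09 in MYC tumours, and was lower in the tumour of 4 of 4 mice. In MYC/REG3A mice it averaged 7.97 and 7.83, and was lower in the tumour of 2 of 4. Whether its probes read the transgene is not stated. On the first principal component, with 49.21% of the variance, 2 tumours from MYC/REG3A animals, those of mice 2 and 4, were placed at -4.21 and 2.55, between non-tumour livers (-30.96 to -26.38) and the other 6 tumours (32.70 to 42.29).

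All 10 genes lie on mouse chromosome 8 in the RefSeq annotation of GRCm38.p6. Ces1b to Ces1g stand next to each other in that order, with Ces1a before and Ces1h after them. A second cluster runs from Ces2a to Ces4a and holds Ces2e, Ces2g, Ces3a and Ces3b. Promoter sequence from RefSeq was at hand for 7 of the 10 genes (Ces1b, Ces1c, Ces1e, Ces1g, Ces2a, Ces2e and Ces3b). The 250 bases before the start site are shown for 3 Ces1 genes that fell in tumours and for 3 Ces2 genes that behaved differently from each other. Capitals mark TTATGTAA, a sequence of the D-box type bound by factors such as DBP, and GGCAAAGT (read as ACTTTGCC on the other strand), part of an element bound by receptors such as HNF4A. TATAAA is in capitals too, on either strand. The first of these 3 was searched for after it had been seen in the Ces1 windows, and the second after it had been seen in the Ces2 windows.
Ces1b, chr8:93079941-93080190, minus strand: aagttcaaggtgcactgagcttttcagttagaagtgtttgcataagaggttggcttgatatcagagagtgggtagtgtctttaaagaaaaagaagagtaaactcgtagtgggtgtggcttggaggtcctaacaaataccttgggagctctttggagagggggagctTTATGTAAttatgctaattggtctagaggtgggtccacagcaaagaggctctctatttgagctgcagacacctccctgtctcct
Ces1c, chr8:93131284-93131533, minus strand: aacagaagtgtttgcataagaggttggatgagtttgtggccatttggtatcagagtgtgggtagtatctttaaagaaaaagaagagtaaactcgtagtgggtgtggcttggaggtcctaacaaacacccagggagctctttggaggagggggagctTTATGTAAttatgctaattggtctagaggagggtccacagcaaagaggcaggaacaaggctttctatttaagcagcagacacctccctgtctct
Ces1g, chr8:93337210-93337459, minus strand: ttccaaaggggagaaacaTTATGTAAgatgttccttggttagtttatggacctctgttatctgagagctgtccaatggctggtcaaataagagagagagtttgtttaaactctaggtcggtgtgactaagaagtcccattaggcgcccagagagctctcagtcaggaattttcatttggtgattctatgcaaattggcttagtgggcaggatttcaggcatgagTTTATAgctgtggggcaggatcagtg
Ces2a, chr8:104733753-104734002, plus strand: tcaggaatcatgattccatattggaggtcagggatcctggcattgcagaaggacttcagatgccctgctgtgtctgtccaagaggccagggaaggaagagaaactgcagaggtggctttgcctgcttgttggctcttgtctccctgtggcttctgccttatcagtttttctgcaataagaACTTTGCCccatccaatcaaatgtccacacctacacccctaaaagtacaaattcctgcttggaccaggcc
Ces2e, chr8:104926010-104926259, plus strand: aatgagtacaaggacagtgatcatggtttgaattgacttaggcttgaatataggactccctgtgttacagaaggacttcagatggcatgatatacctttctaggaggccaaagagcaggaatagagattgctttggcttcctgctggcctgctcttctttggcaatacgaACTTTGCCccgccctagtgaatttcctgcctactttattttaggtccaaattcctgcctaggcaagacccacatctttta
Ces2g, chr8:104961468-104961717, plus strand: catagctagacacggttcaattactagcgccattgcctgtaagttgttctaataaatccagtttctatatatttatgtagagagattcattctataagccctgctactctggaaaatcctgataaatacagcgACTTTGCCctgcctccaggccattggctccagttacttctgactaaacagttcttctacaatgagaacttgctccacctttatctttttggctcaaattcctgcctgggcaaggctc

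TTATGTAA stood in the windows of Ces1b, Ces1c, Ces1e and Ces1g, all 4 Ces1 members with a window, and in that of Ces1a. On either strand it was found in 269 of 32851 promoter windows of this length (0.819%). Its first base lay 84 bases before the start site in Ces1b, 94 in Ces1c, 81 in Ces1e and 232 in Ces1g. GGCAAAGT stood in the windows of Ces2a, Ces2e, Ces2f and Ces2g and in 263 of all windows (0.801%). It lay 70 bases before the start in Ces2a, 80 in Ces2e and 117 in Ces2g, the Ces2 gene that was higher in tumours. The genes of a cluster are tandem copies, so matches in several of them are not independent. TATAAA was found in 12.4% of all windows, and among the members in Ces1g and Ces3b. The windows of Ces1b and Ces1c aligned with 76.2% identity, against 53.2% for Ces2a and Ces2e. This was the highest value among pairs of carboxylesterases with a window, which leaves out Ces1d, Ces1f and Ces3a. Array probes of 1 Ces1 gene may also bind RNA of its neighbours. Promoter windows do not tell how far, and transcript and probe sequences were not compared. None of the matches to the short sequences in capitals shows that a factor binds there.

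Tumours of MYC mice were first set against their own livers, to see which of these hydrolases differ. Of the 10 genes, 8 fell and 0 rose by limma (Benjamini-Hochberg adjusted over all 13555 genes tested, threshold 0.05), against 15.8% of all tested genes lower and 17.4% higher (33.2% in either direction). All 6 Ces1 members fell, with Ces2e and Ces3b, while Ces2a and Ces3a did not pass. The median log2 change of the 10 genes was -1.46, and that of all tested genes was -0.03. In 7 genes the tumour values lay wholly below the non-tumour values, against 14.1% of all tested genes. The same 8 genes were lower in the tumour of 4 of 4 mice, against 23.6% of all tested genes. Since tissue pieces were measured, fewer hepatocytes and less of a transcript per hepatocyte cannot be told apart.

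**Figure D1:**
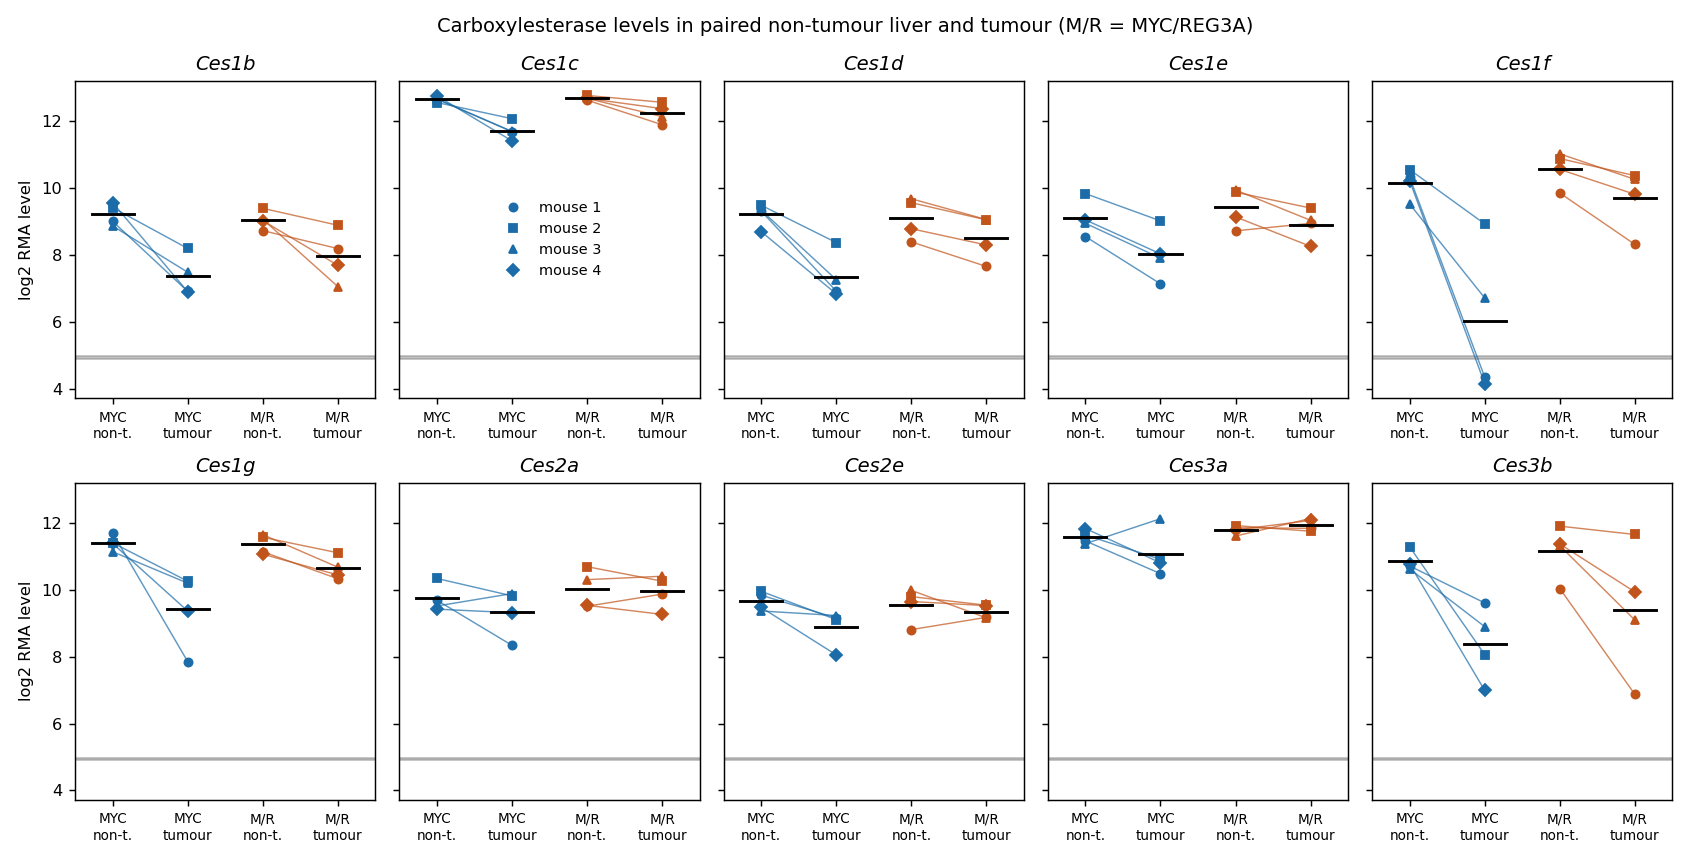
Log2 RMA level (y axis) of each of the 10 carboxylesterases in MYC and MYC/REG3A (M/R) mice. Points are single arrays, lines join the tumour and non-tumour liver (non-t.) of a mouse, black bars are group means and the grey band is the range of the array medians. Ces1f in the tumours of MYC mice 1 and 4 is the only point set below the band, at 4.35 and 4.15.

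Ces1f, also known as triacylglycerol hydrolase 2, had the largest change. In MYC non-tumour liver its log2 level was 10.32, 10.55, 9.53 and 10.22 in mice 1 to 4. In their tumours it was 4.35, 8.93, 6.71 and 4.15. The tumours thus differed widely from each other: those of mice 1 and 4 were below the array median, where background limits what can be measured, while that of mouse 2 was the highest, though still below every non-tumour value. The mean went from 10.16 ± 0.44 to 6.04 ± 2.25 (SD, n = 4), and the gene fell by 4.12 (SE 0.641, limma adjusted p = 0.00192), the 13th largest fall of the 13555 genes. Without MYC mouse 2 it was 4.95 and without MYC mouse 4 it was 3.47.

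Ces1d, the triacylglycerol hydrolase that mobilises stored lipid for very low density lipoprotein, had lower values in all 4 tumours. Its level was 9.31, 9.49, 9.34 and 8.70 in MYC non-tumour liver and 6.92, 8.37, 7.26 and 6.84 in the paired tumours. No tumour reached the lowest non-tumour value. The gene fell by 1.86 (SE 0.175, limma adjusted p = 0.000428), which is 3.64-fold. Ces1g, another liver lipid hydrolase of the cluster, had levels of 11.70, 11.41, 11.14 and 11.39 in non-tumour liver and of 7.85, 10.26, 10.20 and 9.36 in the tumours. The tumour of mouse 1 was the lowest and set much of the mean. Ces1g fell by 1.99 (SE 0.381, limma adjusted p = 0.00429), and by 1.37 without MYC mouse 1, where it still passed.

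Ces1b and Ces1c, the pair with the most similar promoter windows, both fell, by different amounts. Ces1b was at 9.01, 9.42, 8.87 and 9.57 in MYC non-tumour liver and at 6.91, 8.20, 7.48 and 6.90 in the tumours, a fall of 1.84 (SE 0.285, limma adjusted p = 0.00186). Ces1c encodes the esterase secreted into mouse plasma. Its level was 12.56 to 12.76 in non-tumour liver and 11.69, 12.08, 11.70 and 11.41 in the tumours of mice 1 to 4. It fell by 0.94 (SE 0.144, limma adjusted p = 0.00177). Its non-tumour level was near the top of the scale (array maxima 13.55 to 13.68), where differences may be compressed. Ces1e, or egasyn, which holds beta-glucuronidase in the endoplasmic reticulum, fell by 1.07 (SE 0.182, limma adjusted p = 0.00265). It was lower in the tumour of each of the 4 mice, by 0.82 to 1.42, but mice differed enough in level that tumour values (7.14 to 9.02) overlapped non-tumour values (8.55 to 9.84).

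Ces3a and Ces3b are adjacent genes for liver esterases of the endoplasmic reticulum, and their values in the tumours differed. Ces3b was at 10.71, 11.29, 10.62 and 10.77 in MYC non-tumour liver and at 9.61, 8.06, 8.90 and 6.99 in the tumours. It fell by 2.46 (SE 0.494, limma adjusted p = 0.00519), with no overlap of the groups. Ces3a was at 11.46, 11.64, 11.38 and 11.83 in non-tumour liver and at 10.48, 10.91, 12.13 and 10.81 in the tumours. Its tumour value was lower in 3 mice and higher in mouse 3. The change of -0.50 did not pass (SE 0.261, 95% interval -1.08 to 0.09, limma adjusted p = 0.171), but without MYC mouse 3 it was -0.91 and passed (adjusted p = 0.00507).

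The Ces2 members showed smaller differences. Ces2e was at 9.84, 9.96, 9.37 and 9.47 in MYC non-tumour liver and at 9.16, 9.11, 9.23 and 8.05 in the tumours. It fell by 0.77 (SE 0.216, limma adjusted p = 0.0223), and the tumour of mouse 4 lay more than 1 log2 unit below the other tumours. The call was lost without MYC mouse 1, 2 or 4 (adjusted p = 0.0544, 0.0597 and 0.105). Ces2a, a hydrolase of diglyceride and triglyceride in liver, was at 9.69, 10.34, 9.52 and 9.42 in non-tumour liver and at 8.34, 9.82, 9.89 and 9.32 in the tumours. It was lower in 3 of the 4 mice, and its change of -0.40 did not pass (95% interval -0.94 to 0.14, limma adjusted p = 0.226).

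In MYC/REG3A mice the same comparison gave calls for fewer of the genes. Ces1b and Ces3b fell and 0 rose, against 4.88% of all tested genes lower and 7.58% higher by limma. The median log2 change of the 10 genes was -0.55, against -0.02 for all tested genes. The tumour values lay wholly below the non-tumour values in 1 of the 10, Ces1c, against 8.29% of all tested genes. In 6 genes, the Ces1 members other than Ces1e and Ces3b, the tumour was lower in 4 of 4 mice, against 20.9% of all tested genes. Of the 8 genes without a call, 7 had a lower mean in the tumours and Ces3a a higher one.

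Ces1b was at 8.73, 9.40, 9.07 and 9.02 in the non-tumour liver of MYC/REG3A mice 1 to 4 and at 8.19, 8.89, 7.05 and 7.69 in their tumours. All 4 mice had a lower value in the tumour, mice 3 and 4 by more than 1 log2 unit. The gene fell by 1.10 (SE 0.285, limma adjusted p = 0.0355). Ces3b was at 10.04, 11.90, 11.32 and 11.37 in non-tumour liver and at 6.87, 11.65, 9.10 and 9.94 in the tumours. The tumour of mouse 1 had the lowest value of all 16 arrays, and that of mouse 2 differed from its own non-tumour liver by only -0.25. Ces3b fell by 1.77 (SE 0.494, limma adjusted p = 0.0448). These calls were weak: both were lost without MYC/REG3A mouse 1, 3 or 4, where 1, 0 and 0 of the 10 genes passed, and the gene that passed without mouse 1 was Ces1e. Without mice 2 and 4, whose tumours stand apart, 1 gene passed, Ces3b, with a fall of 2.70. Without the mouse as a block, or with it as a random block, Ces3b did not pass (adjusted p = 0.141 and 0.103), and when genes of low level were kept in, neither gene passed.

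Ces1f was at 9.85, 10.88, 11.03 and 10.56 in MYC/REG3A non-tumour liver and at 8.32, 10.37, 10.26 and 9.81 in the tumours. None of these tumours came near the array median, unlike those of MYC mice 1 and 4. The change was -0.89 (SE 0.641, 95% interval -2.32 to 0.54, limma adjusted p = 0.385). Ces1d was at 8.39, 9.56, 9.68 and 8.79 in non-tumour liver and at 7.66, 9.05, 9.06 and 8.30 in the tumours. Every tumour was lower than its own liver by a similar amount, 0.49 to 0.73, and the change of -0.59 missed the threshold (SE 0.175, limma adjusted p = 0.0538). It passed with a stricter filter on low values (adjusted p = 0.0452) and with arrays centred on the median of tested genes (adjusted p = 0.0411). Ces1g differed by -0.72 (limma adjusted p = 0.238), Ces1e by -0.51 (adjusted p = 0.0919) and Ces1c by -0.45 (adjusted p = 0.0683, and 0.0393 with the mouse as a random block). Each was lower in the tumour of 4 of 4 mice except Ces1e, which was higher in mouse 1. The standard errors are shared by both genotypes, so they do not measure the scatter among MYC/REG3A mice alone. The SD of the paired changes was 2.25 for Ces1f and 1.32 for Ces1g in MYC mice. In MYC/REG3A mice it was 0.448 and 0.222. For Ces1e it went the other way, 0.250 in MYC and 0.529 in MYC/REG3A mice.

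Ces2a, Ces2e and Ces3a had the smallest values here, with log2 changes of -0.06, -0.21 and 0.16 and 95% intervals of -0.60 to 0.48, -0.69 to 0.27 and -0.43 to 0.74. Ces3a was at 11.86, 11.92, 11.61 and 11.79 in non-tumour liver and at 11.84, 11.75, 12.14 and 12.08 in the tumours, so it was higher in 2 mice and lower in 2. Its neighbour Ces3b was lower in all 4 of these mice.

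**Figure D2:**
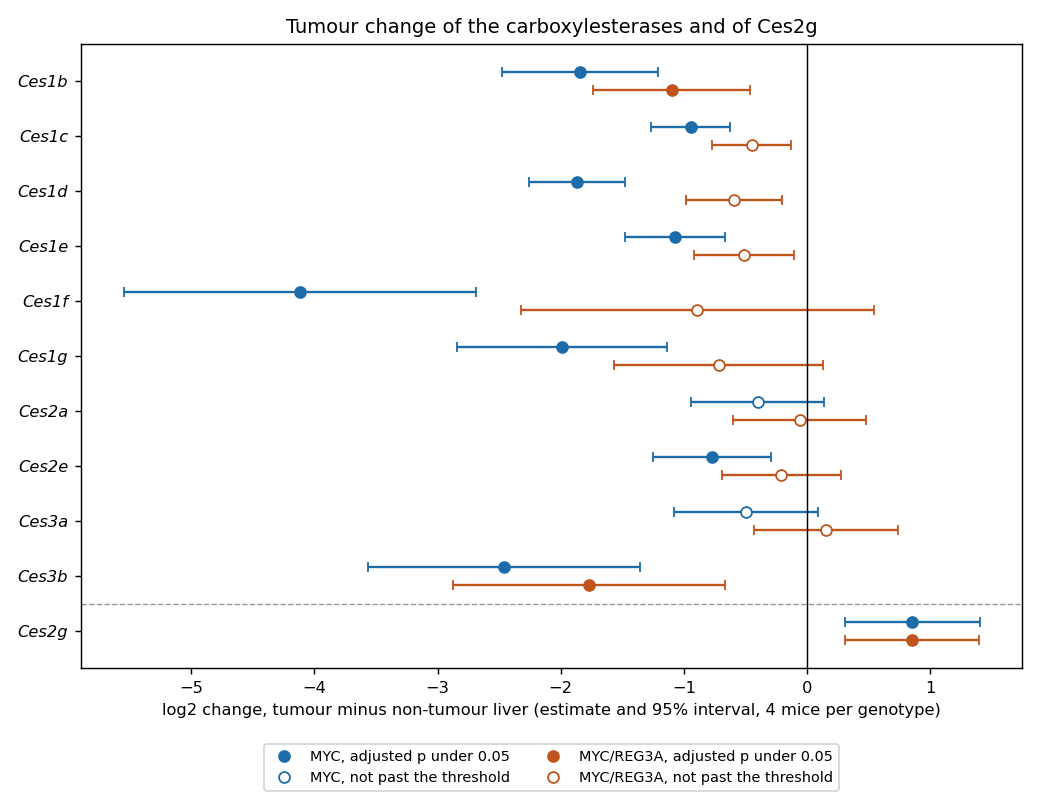
Log2 change from non-tumour liver to tumour (x axis) for the 10 genes and for Ces2g, with the 95% interval from limma, in MYC mice (blue) and MYC/REG3A mice (orange). Filled points passed the adjusted threshold of 0.05: 8 of the 10 genes in MYC mice, 2 in MYC/REG3A mice, and Ces2g, to the right of 0, in both.

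The difference between these tumour changes was tested directly, as the change in MYC/REG3A mice minus the change in MYC mice. All 10 differences were above 0, with a median of 0.67, meaning a smaller fall or none in MYC/REG3A mice. None of the 10 passed after adjustment over all tested genes, against 0.00738% of all tested genes, and 4 had an unadjusted p under 0.05, against 5.58% of all tested genes. Ces1d stood furthest from 0 relative to its error, with a difference of 1.27 (SE 0.247, 95% interval 0.72 to 1.83, limma adjusted p = 0.873). The paired changes of Ces1d ran from -2.40 to -1.12 in MYC mice and from -0.73 to -0.49 in MYC/REG3A mice, without overlap. Those of Ces1f ran from -6.07 to -1.62 and from -1.54 to -0.51, also without overlap. How many of all tested genes separate in this way was not counted. Ces1f differed by 3.23 (95% interval 1.21 to 5.25, limma adjusted p = 0.873), Ces1g by 1.27 (0.07 to 2.48) and Ces1c by 0.50 (0.04 to 0.95), both also at an adjusted p of 0.873. Ces3b, which was called in both genotypes, differed by 0.69 (-0.87 to 2.25, adjusted p = 0.904), and by -0.24 without MYC/REG3A mice 2 and 4. The genes were listed with the results in MYC tumours known, and both comparisons use those tumours, so the shared sign is not independent support.

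**Figure D3:**
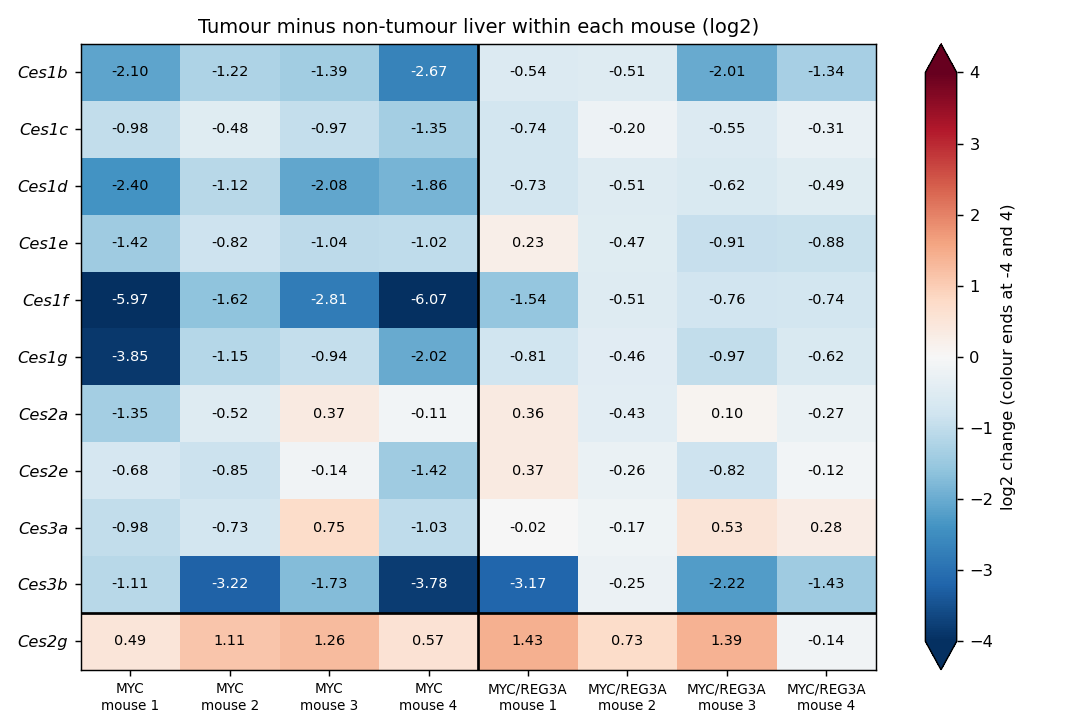
Log2 difference between the tumour and the non-tumour liver of each mouse (columns) for the 10 genes and Ces2g (rows), with blue for lower and red for higher in the tumour. MYC mice 1 and 4 hold the lowest values of Ces1f, -5.97 and -6.07, and Ces3a and Ces2a are the members with red cells in MYC mouse 3.

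Mice did not rank alike for every gene. The median change of the 10 genes was -1.38, -0.98, -1.01 and -1.64 in MYC mice 1 to 4 and -0.64, -0.45, -0.79 and -0.55 in MYC/REG3A mice 1 to 4. In MYC mouse 1 the lipid hydrolases Ces1f and Ces1g had their low values, -5.97 and -3.85, while Ces3b had its smallest difference among MYC mice, -1.11. In MYC mouse 2 Ces1f had its smallest difference among MYC mice, -1.62, beside -3.22 for Ces3b. MYC mouse 4 had the lowest values of both genes, -6.07 for Ces1f and -3.78 for Ces3b. MYC/REG3A mouse 1 had -3.17 for Ces3b and 0.23 for Ces1e. In MYC/REG3A mouse 2 all 10 genes were lower, by 0.51 at most. With each gene centred on its own mean over the 16 arrays, Ces1c and Ces2e lay closest, differing by 0.339 log2 units (root mean square). Ces1d and Ces1g differed by 0.489. The values were not scaled, so genes that vary little lie close to each other. Over the 16 arrays Ces1c spanned 1.36, Ces2e 1.93 and Ces1f 6.87. Ces3a and its neighbour Ces3b differed by 1.47, and Ces1f stood furthest from others, by 1.31 to 1.85.

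The comparison of the genotypes in non-tumour liver asks whether the REG3A transgene goes with other carboxylesterase levels before tumours are considered. None of the 10 genes passed by limma, none of all tested genes passed (0%), and 0 of the 10 had an unadjusted p under 0.05, against 5.45% of all tested genes. The groups overlapped in all 10, while 2.27% of all tested genes were lower and 1.61% higher without overlap. Differences, as MYC/REG3A minus MYC, ran from -0.16 in Ces1b to 0.43 in Ces1f. Ces1c had the narrowest interval, -0.28 to 0.34, around a difference of 0.03. The widest were those of Ces1f (-1.27 to 2.12) and Ces3b (-1.32 to 1.93), so differences within these ranges are not excluded. Ces1c itself barely varied in non-tumour liver, from 12.56 to 12.77 over 8 mice, while Ces3b ranged from 10.04 to 11.90.

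Between the tumours of the genotypes, all 10 genes had the higher mean in MYC/REG3A mice, and 0 passed by limma, against 0.0221% of all tested genes (0.00738% higher and 0.0148% lower). An unadjusted p under 0.05 was found for 6 of the 10, against 10.6% of all tested genes. Ces1f differed by 3.66 (SE 0.796, 95% interval 1.96 to 5.35, limma adjusted p = 0.201), with means of 6.04 ± 2.25 in MYC and 9.69 ± 0.95 in MYC/REG3A tumours (SD, n = 4). The groups overlapped through the tumour of MYC mouse 2. Ces1g differed by 1.22 (SE 0.39, adjusted p = 0.349) and was the only member whose groups did not overlap, at 7.85 to 10.26 against 10.33 to 11.11, compared with 1.63% of all tested genes higher and 1.9% lower without overlap. Ces1d differed by 1.17, Ces3a by 0.87 and Ces1c by 0.53 (limma adjusted p = 0.356, 0.312 and 0.278). Leaving out MYC mouse 2 or MYC/REG3A mouse 1 brought Ces1f past the threshold (4.62 and 4.11, adjusted p = 0.00548 and 0.0446), and leaving out MYC mouse 3 did so for Ces3a (1.22, adjusted p = 0.00346). Without MYC/REG3A mice 2 and 4, whose tumours stood apart on the first principal component, Ces3b turned to -0.41. The other members kept their sign there, but Ces1b went from 0.58 to 0.25 and Ces1c from 0.53 to 0.30. MYC tumours enter both this comparison and that with their own non-tumour liver.

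The rest of the family was examined through 10 other carboxylesterase genes, of which 9 had a row of their own. Only 3 of these were tested, because the others did not exceed the array median on at least 4 arrays. Ces2g rose in both genotypes. It was at 8.65 to 9.22 in MYC non-tumour liver and at 9.57 to 10.32 in the tumours, with no overlap, a rise of 0.86 (SE 0.244, limma adjusted p = 0.024). In MYC/REG3A mice it was at 8.63, 9.01, 9.18 and 9.38 in non-tumour liver and at 10.06, 9.75, 10.57 and 9.24 in the tumours, a rise of 0.85 (SE 0.244, limma adjusted p = 0.0489). It was higher in the tumour of every mouse but MYC/REG3A mouse 4. The call in MYC mice was lost without mouse 2 or 3, and that in MYC/REG3A mice without mouse 1, 2 or 3 and under 3 other settings: no filter on low values, the mean of all rows of a gene, and a trended robust variance (adjusted p = 0.0723, 0.0501 and 0.0519).

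The pseudogene Ces2d-ps and Ces2h did not pass. Their log2 changes were 0.26 and 0.0046 in MYC tumours and 0.03 and -0.0019 in MYC/REG3A tumours. Ces1a, Ces1h, Ces2b, Ces2f, Ces4a and Ces5a had group means of 3.41 to 4.78 and were not tested. Of these 6 genes only Ces4a exceeded the array median on any array, on 1 of 16, and values this low do not show that the genes are silent. Ces2c had no row with its symbol alone and was not analysed here. Of the family genes tested, the 10 members, Ces2g, Ces2d-ps and Ces2h, 8 fell and 1 rose in MYC tumours. Among all tested genes 15.8% fell and 17.4% rose there.

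**Figure D4:**
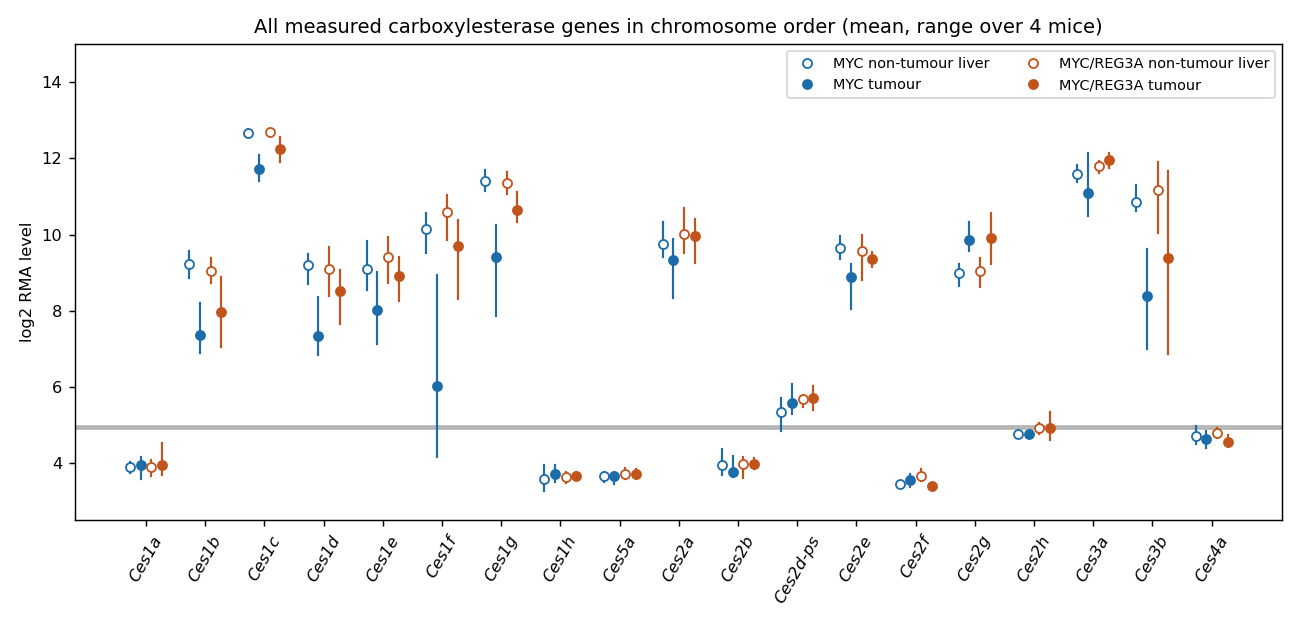
Log2 RMA level (y axis) of the 19 carboxylesterase genes with a row of their own, in chromosome order. Circles are group means over 4 mice (open for non-tumour liver, filled for tumours), bars run from the lowest to the highest mouse, and the grey band is the range of array medians. The 10 members, Ces2g and Ces2d-ps lie above the band as group means, and in Ces2g alone of these are both filled circles clearly above the open ones.

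Other hydrolases of esters, lipids and epoxides were measured beside the carboxylesterases. Of 23 tested genes 10 fell and 2 rose in MYC tumours, with a median change of -0.37. Among all tested genes 15.8% fell and 17.4% rose there. Pon1, the paraoxonase that liver secretes onto lipoproteins, fell by 1.19 (SE 0.164) and Lipg, endothelial lipase, by 1.73 (SE 0.326). Lipe, hormone-sensitive lipase, fell by 0.61 (SE 0.112), and Lpl, lipoprotein lipase, rose by 1.74 (SE 0.292). In MYC/REG3A tumours 2 of the 23 fell and 1 rose, against 4.88% and 7.58% of all tested genes. Pon1 fell by 0.62 (SE 0.164) and Pon2 by 0.42 (SE 0.111), and Lpl rose by 2.09 (SE 0.292). Ephx1, a microsomal epoxide hydrolase, differed by 0.70 without passing (limma adjusted p = 0.0536). In MYC tumours Ephx1 rose by 0.62 (SE 0.208, limma adjusted p = 0.0445) and Pon2 fell by 0.52 (SE 0.111), both past the threshold.

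Genes that assemble very low density lipoprotein or make triglyceride, the pathway in which Ces1d works, changed less as a list. Of 18 tested genes 4 fell and 2 rose in MYC tumours, with a median of -0.13. The shares of all tested genes were 15.8% and 17.4%. In MYC/REG3A tumours 2 fell and 2 rose, with a median of -0.05, against 4.88% and 7.58% of all tested genes. Tm6sf2, a membrane protein needed to load these particles with lipid, fell by 1.23 in MYC tumours (SE 0.175) and by 0.66 in MYC/REG3A tumours (SE 0.175). Pltp, the phospholipid transfer protein, fell by 1.47 and 1.36 (SE 0.368 for both). Dgat1, which makes triglyceride, rose by 0.75 and 0.81 (SE 0.199 for both). Gpam, the first enzyme of glycerolipid synthesis, fell by 0.53 in MYC tumours (SE 0.146). Apoa4 rose by 0.39 in MYC tumours and by 0.51 in MYC/REG3A tumours (SE 0.117 for both).

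Receptors and factors known to act on liver genes, carboxylesterases among them, were counted in the same way. Of 18 tested, 6 fell and 2 rose in MYC tumours, with a median of -0.23, against 15.8% and 17.4% of all tested genes. In MYC/REG3A tumours 1 fell and 0 rose, with a median of -0.18, against 4.88% and 7.58% of all tested genes. Onecut1, a homeobox factor of hepatocytes, fell by 2.47 in MYC tumours (SE 0.281) and by 0.99 in MYC/REG3A tumours (SE 0.281). Nr1i3, the receptor CAR that responds to drugs, and Foxa1 fell by 1.01 and 0.81 in MYC tumours (SE 0.173 and 0.113), and Nfe2l2 rose by 0.42 (SE 0.123). In MYC/REG3A tumours Nr1i2, the receptor PXR, differed by 0.67, Nr1i3 by -0.51 and Cebpa by -0.35 without passing (limma adjusted p = 0.0612, 0.0787 and 0.101). Nr1i2 was also higher in the tumours of MYC mice, in 4 of 4, with means of 9.51 in non-tumour liver and 10.12 in tumours. Of 11 chaperones and receptors that fold and retain proteins in the endoplasmic reticulum, 0 passed by limma in either genotype.

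Cell type markers were set beside the members. Among all tested genes 15.8% fell in MYC tumours and 4.88% in MYC/REG3A tumours. Of 16 hepatocyte markers 2 fell in MYC tumours and 1 in MYC/REG3A tumours, with medians of -0.09 and -0.10. Their mean log2 level was 12.40 to 12.56 in MYC non-tumour liver and 12.33 to 12.46 in the tumours, and 12.51 to 12.67 and 12.31 to 12.55 in MYC/REG3A mice. Tat, a liver aminotransferase, fell by 0.99 in MYC tumours (SE 0.197), Serpina1a by 0.63 (SE 0.172), and Alb differed by -0.16 (limma adjusted p = 0.187). With every array centred on these 16 genes, 7 of the 10 carboxylesterases still fell in MYC tumours, all but Ces2e of the 8, and 1 in MYC/REG3A tumours. This scaling moved the median change of all tested genes by 0.14 in MYC tumours. The mean of the markers lay near the top of the scale (array maxima 13.55 to 13.68), where differences may be compressed. Hepatocyte content itself was not measured.

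Markers of other cells moved as well. The shares of all tested genes were 15.8% lower and 17.4% higher in MYC tumours. In MYC/REG3A tumours they were 4.88% and 7.58%. Of 11 sinusoidal endothelial markers 10 fell in MYC and 8 in MYC/REG3A tumours, and of 12 markers of macrophages 8 fell in each. Their mean levels went from 8.42 to 9.24 in MYC non-tumour liver to 7.66 to 7.98 in MYC tumours for the endothelium, and from 8.12 to 9.66 to 7.46 to 8.38 for macrophages. In MYC/REG3A mice the endothelial list went from 8.25 to 8.68 in non-tumour liver to 7.39 to 8.42 in tumours, and the macrophage list from 8.39 to 9.08 to 7.01 to 8.22. Of 12 stellate cell markers 6 and 5 fell, of 5 bile duct markers 3 and 0, of 8 lymphocyte markers 1 and 2, and of 6 neutrophil markers 3 and 0, and 0 rose. Of 5 tested adipocyte markers 3 rose in each genotype (Pparg, Fabp4 and Plin4). The mean level of that list was 5.26 to 5.83 in non-tumour liver and 5.71 to 7.05 in tumours. Adipoq, another gene of the list, was not tested. Its values were 3.75 to 3.99 in all groups, under the array median, where background limits what can be measured. The part of these cells in the carboxylesterase values was not tested.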

How the data were processed

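Total RNA of 16 liver pieces was labelled as single-strand cDNA and hybridised to 1-colour Affymetrix arrays, per the labels' protocols. Values were deposited on a log2 scale after RMA by the authors. Per the submitters' processing notes the software was Affymetrix Expression Console 1.4.1. The log base was read from the values, and the settings and genome build are not given in the sources used here. RMA equalises array distributions, so changes are relative to the other genes. The table had 41345 rows, of which 23521 carried exactly 1 gene symbol, for 22180 genes. A gene was tested when it exceeded the array median on at least 4 arrays (13555 genes, all 10 members included, each above it on at least 14 of the 16 arrays). Precision is limited by how many arrays there are.

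Tests used limma (version 3.58.1, R 4.3.3) over all 16 arrays (2-sided, Benjamini-Hochberg over all tested genes, threshold 0.05). Tumour comparisons had the mouse as a block, because both pieces came from 1 animal. Deviations of a mouse's pieces from their group means correlated at 0.0963 to 0.325, and 7 of 8 mice matched their own tumour best. Genotype comparisons used 4 group means. Standard errors pool the spread over all groups. The procedure was also run on simulated data with independent noise, no mouse effect and the same spread in all groups. Such data cannot check the mouse block or unequal spread. The members and lists were chosen with earlier results of these data known. Named genes were the members, other carboxylesterases, up to 4 genes of lowest p per list, and Myc and Alb. The range of Adipoq was added after its values were seen. Promoters came from the RefSeq table of GRCm38.p6 and were aligned globally (match 1, mismatch -1, gap opening -3, gap extension -0.5). Alternatives were other filters, gene rows, scalings and moderation, other uses of the block, and leaving out mice.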

Additional observations from a re-analysis of the deposited data

Results flagged for a closer look

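Over 44 sets of 4 arrays (10 members and Ces2g in 4 groups), 1 array stood apart from the others of its group by Dixon's test, where chance gives about 1 in 20. The level of Ces2e in the tumour of MYC mouse 4 was 8.05, and the other 3 MYC tumours lay between 9.11 and 9.23, so that the gap made up 0.896 of the range.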

How the results depend on the processing

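In MYC tumours the number of members that passed was 7 to 9 under every alternative tried, against 8 as reported. In MYC/REG3A tumours it was 2, and it became 0 without a filter on low values and 1 with arrays centred on hepatocyte markers, with a trended robust variance, with no replicate block, or without mice 2 and 4. It became 3 with a stricter filter and with arrays centred on the median of tested genes, where Ces1d joined. With the mouse as a random block it stayed at 2, with Ces1c in place of Ces3b. It ranged from 0 to 2 when 1 mouse was left out. Without the block 8 members passed in MYC tumours. The genotype difference of the tumour change and the genotype comparison of non-tumour liver gave 0 members throughout, and that of tumours gave 0 to 1 when a mouse was left out. No paired analysis was possible between genotypes because their mice are different animals. Signs turned only in values without a call. With arrays centred on hepatocyte markers, Ces2a in MYC/REG3A tumours was 0.11 and Ces1c between non-tumour livers -0.066, and this scaling moved the median of all genes by 0.14 and 0.17 in the tumour comparisons. Without MYC/REG3A mice 2 and 4, Ces2a was 0.23 in tumours, Ces3b was -0.24 for the difference of changes, -0.17 between non-tumour livers and -0.41 between tumours, and Ces1c was -0.0050 between non-tumour livers. With 1 mouse left out, Ces2a in MYC/REG3A tumours ranged from -0.20 to 0.064, and between non-tumour livers Ces1c ranged from -0.0046 to 0.062, Ces1d from -0.30 to 0.13, Ces1g from -0.15 to 0.046 and Ces2e from -0.24 to 0.15. The cause was not tested.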
